A study of Mus musculus with 36 samples.

Results

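The peaks described here lie at the centromeric end of the mouse autosomes. They were all intervals of the count table on chromosomes 1 to 19 that ended at or before 10 Mb in GRCm39, where chromosomes are acrocentric and positions are counted from the centromere. The rule used position only. It found 3315 of the 71512 intervals, and 3312 of them had a width and were analysed, while 3 intervals of no width, on chromosomes 12, 16 and 17, were left out. All 3312 passed the filter on low counts, so every member with a width was tested. They were compared with the other 66567 autosomal peaks, and in a few places with the 7859 peaks in the last 10 Mb of each autosome. At the limit of the window on chromosome 2, for example, the last peak inside (9990521 to 9991420) and the first outside (10002261 to 10003150) were both nearest to Taf3.

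Mouse centromeres sit at one end of each chromosome and are flanked by long arrays of satellite repeats, which are packaged into constitutive heterochromatin. This chromatin carries methylated lysine 9 of histone H3, laid down by the SUV39H enzymes, and the mark is bound by heterochromatin protein 1 (HP1), of which HP1α and HP1γ are separate family members. HP1 proteins also recruit enzymes that methylate histone H4 and DNA, and they help to keep genes silent in T cells. The satellite arrays themselves are mostly absent from the assembly, so that the window starts with unsequenced bases followed by unique sequence, genes and some remaining repeats.

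Open chromatin was profiled with ATAC-seq, which relies on a transposase that inserts where DNA is exposed, in splenic CD4 T cells of 2 mouse lines on a mixed 129/Sv and C57BL/6 background. HP1α KO mice carried a germline deletion made by crossing a floxed Hp1a allele with CMV-cre, and HP1γ KO mice were homozygous for a floxed Hp1g allele removed by Cd4-cre, which acts in developing T cells, so that the HP1γ deletion is limited to cells that have expressed this transgene. The WT mice were littermates of each line, without the mutated allele for HP1α and with the floxed allele but without Cd4-cre for HP1γ, and donors were sex-matched and 6 to 12 weeks old. Cells were naive, or were conventional T cells (Tconv) recovered from irradiated hosts, C57BL/6 J or CD45.1+ B6 mice, that had been grafted with C57BL/6 J and semi-allogeneic B6D2F1 bone marrow together with naive WT or KO CD4 T cells, or were the same Tconv transferred with ex vivo expanded regulatory T cells (Treg). Each of the 12 groups had 3 libraries. The labels do not say whether the libraries of a group came from separate mice, so p-values measure the spread between these libraries.

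The libraries held 1.49 to 96.8 M reads in peaks, and 3 HP1α libraries of Tconv with Treg (1 WT and 2 KO) did not meet the study's quality criteria and were dropped by it. With these left out, HP1α Tconv with Treg rested on 2 WT libraries, of 12.7 and 1.49 M reads, and 1 KO library of 50.7 M, and the results of this comparison are given for the kept and for all libraries. Peaks at the transcription start site (TSS) of Cd3g, Cd4 and Cd28, T cell genes, had medians of 3.40 to 4.63 log2 CPM (counts scaled to library size) per kb, against 2.97 for all TSS peaks. Cd3e had no TSS peak. No TSS peak was assigned to Cd8a, Cd79a, Ms4a1, Lyz2, Csf1r, Klrb1c or Ncr1, markers of other blood cells, and Cd8b1 had 1 TSS peak with medians of 2.65 and 1.77 log2 CPM per kb in the HP1α and HP1γ lines, at 1.22 to 4.57 and 0.765 to 4.47 over single libraries, so that some libraries lay as high as at the T cell genes. Naive cells had been isolated by negative selection, and Tconv by CD4 microbeads followed by sorting of donor-specific CD4+ cells, steps that remove CD8 T cells. The part of this signal in the results was not tested.

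The following sequences are from GRCm39, plus strand, written 5′ to 3′. Capitals in the first set mark matches to motifs that were searched on both strands in the central 300 bases of each peak, namely AP-1 (TGANTCA), RUNX (TGTGGTT), ETS (CCGGAAG) and TCF/LEF (TCAAAG), which do not overlap one another here. The first is the centre of the peak in an intron of the lncRNA gene Gm60894, which had the smallest adjusted p among members that rose in HP1γ KO cells.
Gm60894, chr16:8994261-8994460: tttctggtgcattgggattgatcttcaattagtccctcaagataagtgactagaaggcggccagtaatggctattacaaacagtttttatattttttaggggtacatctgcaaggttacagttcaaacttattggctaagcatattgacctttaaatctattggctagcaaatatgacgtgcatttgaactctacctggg
The next is the centre of the intergenic peak nearest to the lncRNA Gm33007, which rose in HP1γ KO Tconv with and without Treg.
Gm33007, chr4:4459331-4459530: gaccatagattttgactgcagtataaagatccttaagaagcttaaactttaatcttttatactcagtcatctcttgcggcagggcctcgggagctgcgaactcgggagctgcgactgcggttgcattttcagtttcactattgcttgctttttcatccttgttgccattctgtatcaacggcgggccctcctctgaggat
The next pair are centres of peaks that rose in HP1γ KO and fell in HP1α KO Tconv with Treg, in an intron at Gm15536 with 1 TCF/LEF match, and at the TSS of 5430414B19Rik.
Gm15536, chr10:6991261-6991460: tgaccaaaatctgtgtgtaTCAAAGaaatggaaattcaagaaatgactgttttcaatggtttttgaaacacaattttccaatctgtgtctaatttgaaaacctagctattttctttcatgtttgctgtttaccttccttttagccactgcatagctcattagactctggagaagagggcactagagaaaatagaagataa
5430414B19Rik, chr14:6199566-6199765: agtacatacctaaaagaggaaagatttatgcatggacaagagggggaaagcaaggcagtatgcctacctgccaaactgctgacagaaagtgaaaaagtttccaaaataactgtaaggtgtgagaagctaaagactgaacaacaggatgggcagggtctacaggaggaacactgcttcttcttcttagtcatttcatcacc
The next pair are centres of the peaks with the smallest adjusted p among those that opened and those that closed with activation in the HP1α line, in introns of Slc25a13 and of the lncRNA Gm48321.
Slc25a13, chr6:6192411-6192610: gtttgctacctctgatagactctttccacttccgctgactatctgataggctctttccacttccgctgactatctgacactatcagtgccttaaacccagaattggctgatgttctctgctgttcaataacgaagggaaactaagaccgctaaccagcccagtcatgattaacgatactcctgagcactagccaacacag
Gm48321, chr14:4467566-4467765: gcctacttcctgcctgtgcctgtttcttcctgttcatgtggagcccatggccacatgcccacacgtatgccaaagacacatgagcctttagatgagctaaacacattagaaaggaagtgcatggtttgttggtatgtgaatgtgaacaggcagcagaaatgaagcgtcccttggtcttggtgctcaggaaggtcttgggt
The last is 1 unit of a tandem repeat at the centromeric edge of chromosome 9, described further on. Capitals there mark the 17 of 234 bases that differ in the next unit (3013905 to 3014138).
Chromosome 9 repeat unit, chr9:3013671-3013904: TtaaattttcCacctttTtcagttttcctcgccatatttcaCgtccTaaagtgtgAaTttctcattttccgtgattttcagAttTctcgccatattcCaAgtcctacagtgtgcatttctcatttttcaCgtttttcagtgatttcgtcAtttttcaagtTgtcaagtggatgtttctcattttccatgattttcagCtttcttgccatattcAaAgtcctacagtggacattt

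In their make-up the peaks of the window resembled those elsewhere. They numbered 25.1 per sequenced Mb, against 29.4 in the rest of the autosomes and 42.0 in the last 10 Mb, and from 6.91 on chromosome 1 to 65.4 on chromosome 19. Chromosome 19 gave 451 peaks and chromosome 1 gave 48. The median width was 776.5 bases against 750 in the rest, and the median GC content 47.2% against 48.1%. Of the members, 34.1% (1131) lay within 1 kb of a TSS, as did 34.0% of the rest, while 42.5% were in introns, 5.28% in exons and 18.1% between genes. They had 1388 different nearest genes. The shares with a motif match in the central 300 bases were 13.5% for AP-1, 12.2% for RUNX, 4.71% for ETS and 21.4% for TCF/LEF, against 12.8%, 12.7%, 4.37% and 21.4% of all autosomal peaks. Tandem repeats were concentrated in the first 100 kb. Of the 2305 members wide enough to score, 25 (1.08%) matched themselves at over 60% identity when shifted by 50 to 400 bases, against 46 of 46099 (0.0998%) in the rest and 20 of 5519 (0.362%) in the last 10 Mb. Beyond the first 100 kb it was 5 of 2234 members (0.224%).

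Activation, meaning WT Tconv from the host against WT naive cells, changed the window about as often as the rest of the genome. A peak was called when its edgeR adjusted p, from a test over all peaks, was under 0.05 and its absolute log2 fold change was over 1. In HP1α-line WT cells 851 members (25.7%) opened, against 24.9% of all peaks, and 567 (17.1%) closed, against 17.5%. In HP1γ-line WT cells 812 (24.5%) opened, against 24.5% of all peaks, and 721 (21.8%) closed, against 22%. The median log2 fold change was -0.09 and 0.04 in the 2 lines, against -0.02 and 0.08 in the rest of the autosomes. In the HP1α line the split of calls moved with the scaling, with 923 opening and 450 closing by library size alone, which shifted the median of all peaks by 0.198. In these bulk samples a change in the mix of cells and a change within each cell cannot be told apart.

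The chromosomes differed far more than the window did as a whole (plot of medians by chromosome). On chromosome 14, 59 of 130 members closed and 13 opened in the HP1α line, and 67 closed and 13 opened in the HP1γ line. The difference of their median log2 fold change from that of the rest of chromosome 14 was -0.76 and -1.17. Each library showed it: the members' median CPM on chromosome 14, relative to its rest, lay between -0.02 and 0.46 in WT naive libraries and between -1.52 and -0.51 in WT Tconv libraries, so that naive and activated libraries did not overlap. Chromosomes 3 (-0.60 and -0.82) and 4 (-0.40 and -0.38) also lay below their rest in both lines. Chromosomes 9 (1.07 and 0.55), 2 (0.72 and 0.46), 5 (0.52 and 0.38) and 6 (0.40 and 0.46) lay above. On chromosome 9, 15 of the 67 members lay within 100 kb of the first sequenced base, a region that moved with library depth (described below), and without them its differences were 0.43 and -0.04. Chromosomes 2, 3, 4 and 14 kept their direction without that region (0.72 and 0.42, -0.73 and -1.14, -0.47 and -0.48, and -0.77 and -1.18), and chromosomes 5 and 6 had no member in it. In the HP1α line 7 chromosomes lay above and 12 below, and so did 7 and 12 in the HP1γ line. Against autosomal peaks of the same GC decile, chromosome 14 kept differences of -1.02 and -1.24, and chromosome 9, with those 15 members included, of 1.13 and 0.63.

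**Figure D1:**
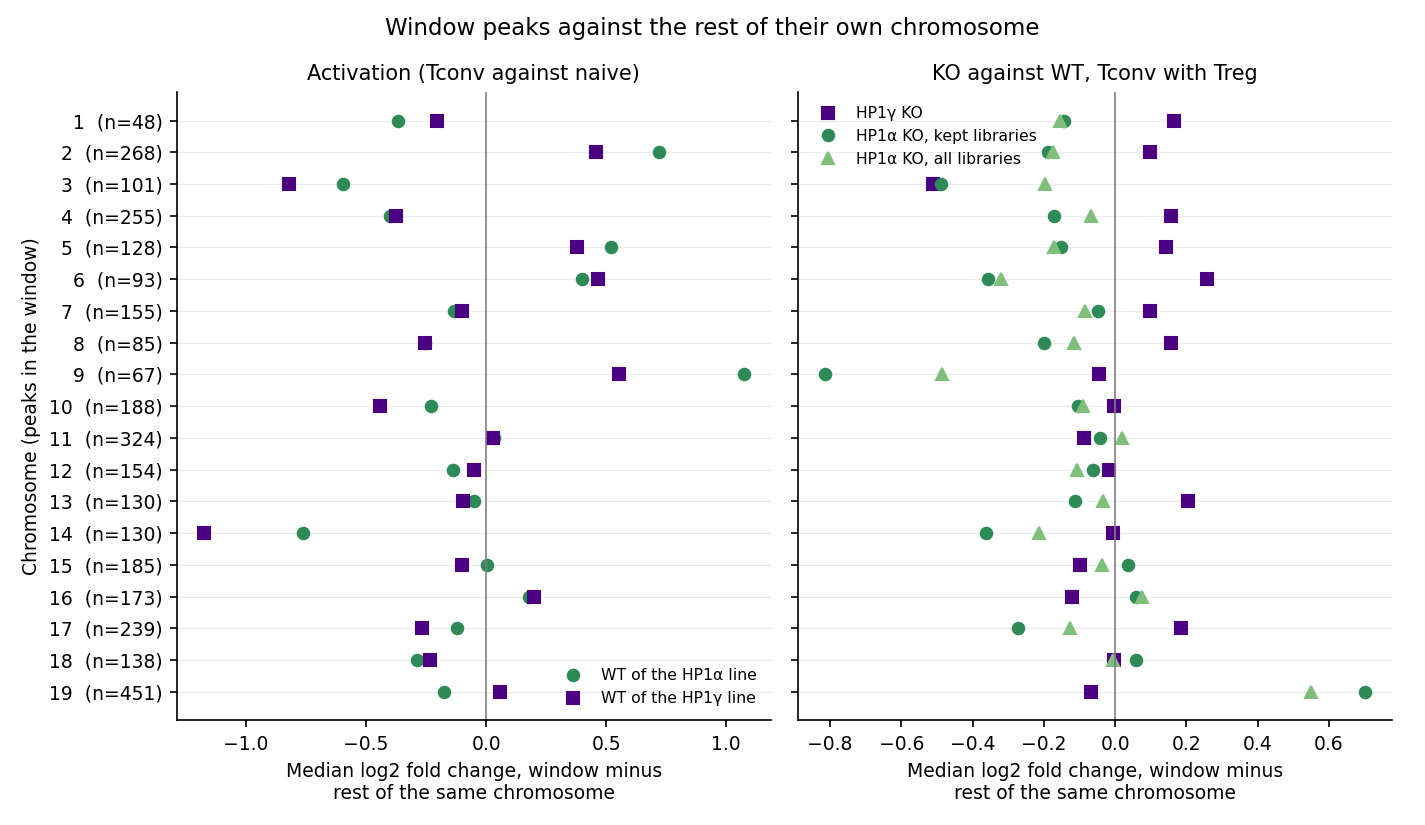
Median log2 fold change of the peaks in the first 10 Mb minus that of the rest of the same chromosome, for the 19 autosomes. The left panel shows activation in WT cells of both lines and the right panel KO against WT in Tconv with Treg. Chromosome 14 lies lowest in activation (-0.76 and -1.17), chromosome 9, with 15 of its 67 members in the first 100 kb, highest (1.07 and 0.55), and chromosome 19 stands at 0.70 for HP1α KO with the kept libraries.

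The peaks behind these shifts lay in named gene blocks. At Gm48321, an lncRNA on chromosome 14, the peak chr14:4466891-4468440 had 5.70, 5.49 and 5.42 log2 CPM in HP1α-line WT naive cells and 1.87, 2.38 and 2.81 in Tconv. In HP1γ-line WT cells it had 5.43, 5.41 and 5.37 against 1.80, 0.79 and 0.60. The log2 fold changes were -3.47 and -4.21. Here and below, a peak named by its adjusted p was also chosen for library groups that do not overlap, so in the comparison that named it this is a condition of the choice and supports nothing. With activation 17.5% and 22% of all peaks closed and 24.9% and 24.5% opened in the HP1α and HP1γ lines. Around Ngly1, a cytoplasmic enzyme that removes N-glycans from misfolded proteins, 14 of 19 peaks closed and 1 opened in the HP1α line. In the HP1γ line 15 of these closed and 1 opened. Around Zfp704, a zinc finger gene on chromosome 3, 18 and 19 of 24 peaks closed and 0 opened by edgeR in either line. Pag1, an adaptor that restrains Src family kinases, had 11 and 13 of 28 peaks closing. On chromosome 17, 24 and 28 of 36 peaks around Arid1b, a subunit of the SWI/SNF remodeller, closed, and on chromosome 10, 16 of 22 peaks around Syne1, a nuclear envelope protein, closed in each line. Loci were taken by nearest protein-coding gene where it had at least 10 member peaks, which gave 79 of 757 loci with 1461 members, a grouping made after values were seen. The loci named here and in the next paragraph are a few of these 79 with many calls, so their counts do not describe the window as a whole.

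Blocks that opened lay on other chromosomes. Their counts stand against 24.9% and 24.5% of all peaks opening, and 17.5% and 22% closing, in the HP1α and HP1γ lines. Around Cdk6, a kinase of the cell division cycle, 18 and 17 of 20 peaks opened and 0 closed by edgeR, and around its neighbour Fam133b 17 of 18 opened in each line. Around Ahnak, a large scaffold protein, 14 and 17 of 17 opened, and around Lif, a cytokine of the IL-6 family, 13 and 12 of 19. Ptger4, which encodes the prostaglandin E2 receptor EP4, had 22 of 30 opening in each line, and Gata3, the defining transcription factor of Th2 cells, had 39 and 42 of 72. Assigned by nearest coding gene, these peaks reached -518 kb (upstream) from the Ptger4 TSS and 1136 kb (downstream) from the Gata3 TSS. Of the 68 peaks at and downstream of the Gata3 TSS, 38 and 42 opened and 6 and 7 closed. Of the 4 upstream of it, 1 and 0 opened and 0 and 1 closed. Over the 72 peaks assigned to Gata3, the median log2 CPM of a library averaged -0.29 ± 0.25 (SD, n = 3) in HP1α-line WT naive cells and 0.99 ± 0.21 in Tconv. In the HP1γ line it averaged -0.35 ± 0.23 and 0.89 ± 0.36. The peak at the TSS of Gata3 itself was not called, with log2 fold changes of -0.36 and 0.13.

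Of single peaks, the one in an intron of Slc25a13, a mitochondrial aspartate and glutamate carrier, went from near 0 reads to clear signal. It had 2, 4 and 2 reads in HP1α-line WT naive libraries and 232, 38 and 18 in Tconv, and 2, 2 and 0 against 143, 200 and 209 in the HP1γ line. Other members with the smallest adjusted p were near Ehd1, a protein of endosomal recycling, with 0.22, 0.35 and 0.69 log2 CPM in HP1α-line WT naive cells and 5.79, 5.48 and 5.40 in Tconv. The log2 fold change was 5.16, and 6.45 in the HP1γ line. The peak at Ica1, a membrane trafficking protein, rose by 6.12 and 5.88, and the one at Casp4, an inflammatory caspase, by 3.29 and 3.15. The others that opened, near Gm61111, Gm30906, Mir935, Gm35037, Tfpt and Tab2, had log2 fold changes from 5.10 to 6.90 in the comparisons that named them. Those that closed were near Gm56889 (-2.98 and -2.93), Gm56914 (-3.38 and -3.75), Gm75229, Arid1b, Gm53610, Gm38001, Gm3625, Zfp704 and Gm65791. The peak of Gm65791 had the lowest value, -5.26 in the HP1γ line.

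The first 100 kb after the first sequenced base stood apart from the rest of the window (plot of medians by distance). It held 86 members, of which 25 were on chromosome 11, 15 on chromosome 9, 12 each on chromosomes 3 and 4, and 11 on chromosome 16. Between genes lay 67.4% of them, and 17.4% were at a TSS. In HP1α-line WT cells 75 of the 86 (87.2%) opened with activation and 0 closed by edgeR and by DESeq2. In the HP1γ line 66 (76.7%) opened and 2 (2.33%) closed. Of all peaks, 24.9% and 24.5% opened and 17.5% and 22% closed in the 2 lines. The medians were 2.27 and 1.68. The 495 members from 100 kb to 1 Mb, taken as 1 bin, had medians of 0.00 and 0.07. Where within this bin the shift ends was not resolved. In HP1α KO cells 62 of 86 (72.1%) opened (median 1.93), against 23.5% of all peaks. In HP1γ KO cells 15 (17.4%) opened, below the 22.4% of all peaks, though the median was 0.83 and 82 of 86 lay above 0. Without HP1α WT Tconv replicate 2 the count of 75 was 34. The count of 66 was 36, 39 and 38 without HP1γ WT Tconv replicate 3, WT naive replicate 2 and WT naive replicate 3. In HP1α KO cells the count was 26, 38 and 34 without Tconv replicate 3, naive replicate 2 and naive replicate 3. In HP1γ KO cells it was 4 and 1 without Tconv replicate 2 and naive replicate 3, and 24 without Tconv replicate 1.

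**Figure D2:**
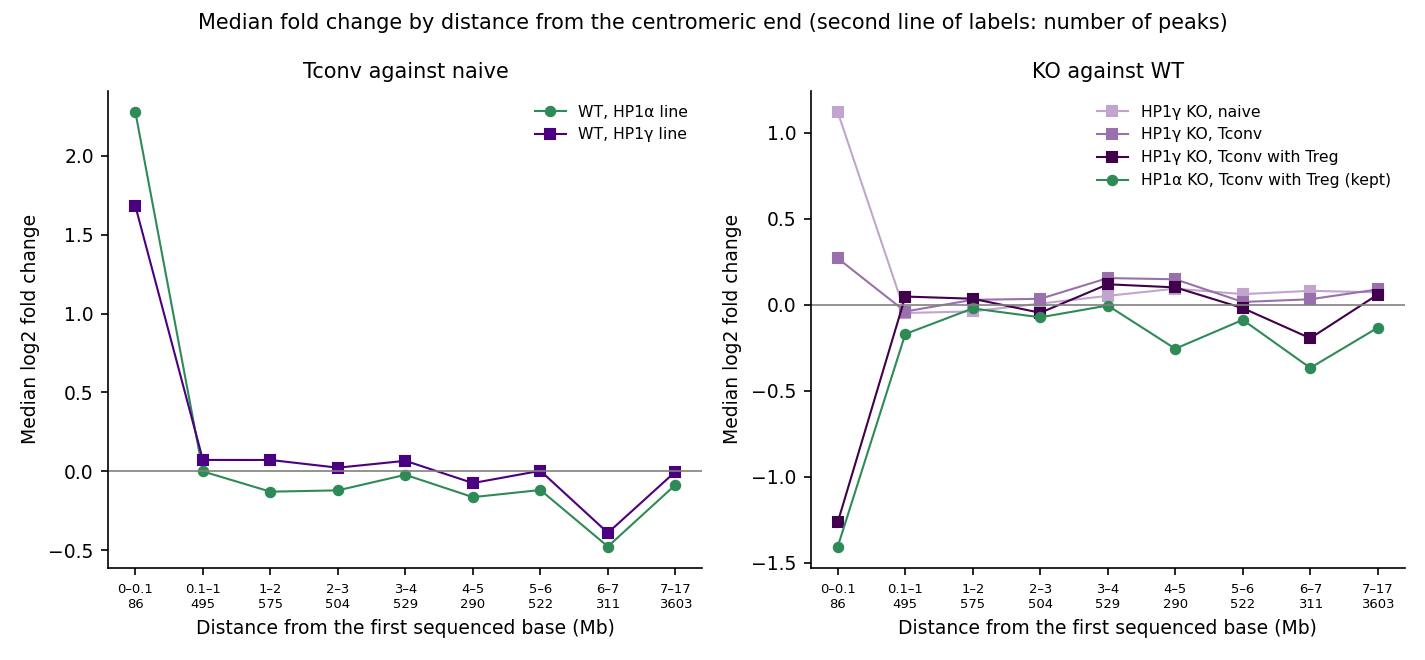
Median log2 fold change of autosomal peaks by distance in Mb from the first sequenced base, in bins of 86, 495, 575, 504, 529, 290, 522, 311 and 3603 peaks, for activation in WT cells and for KO against WT. The first bin, within 0.1 Mb, has medians of 2.27 and 1.68 in activation and -1.26 in HP1γ KO Tconv with Treg, while bins from 0.1 to 6 Mb stay between -0.26 and 0.15 in each of the comparisons shown.

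Library depth moved with this region. The 86 peaks took 0.0333% to 0.826% of the reads in peaks. In the 6 libraries of up to 13 M reads the share was 0.228% to 0.826%, and in the 17 libraries of over 60 M it was 0.0333% to 0.0702%. From 13 to 35 M reads, 2 naive libraries held 0.0690% and 0.0699% and 4 activated ones 0.125% to 0.250%, and from 35 to 60 M, 1 naive library held 0.0477% and 6 activated ones 0.0544% to 0.123%. Above 60 M, the 9 naive libraries held 0.0333% to 0.0440% and the 8 activated ones 0.0417% to 0.0702%, which overlap in part. With log2 depth as a covariate, 35 of 86 peaks opened in HP1α-line WT cells (median 1.03) and 53 in HP1γ-line WT cells (1.23). How much of the remaining difference is due to depth was not tested.

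**Figure D3:**
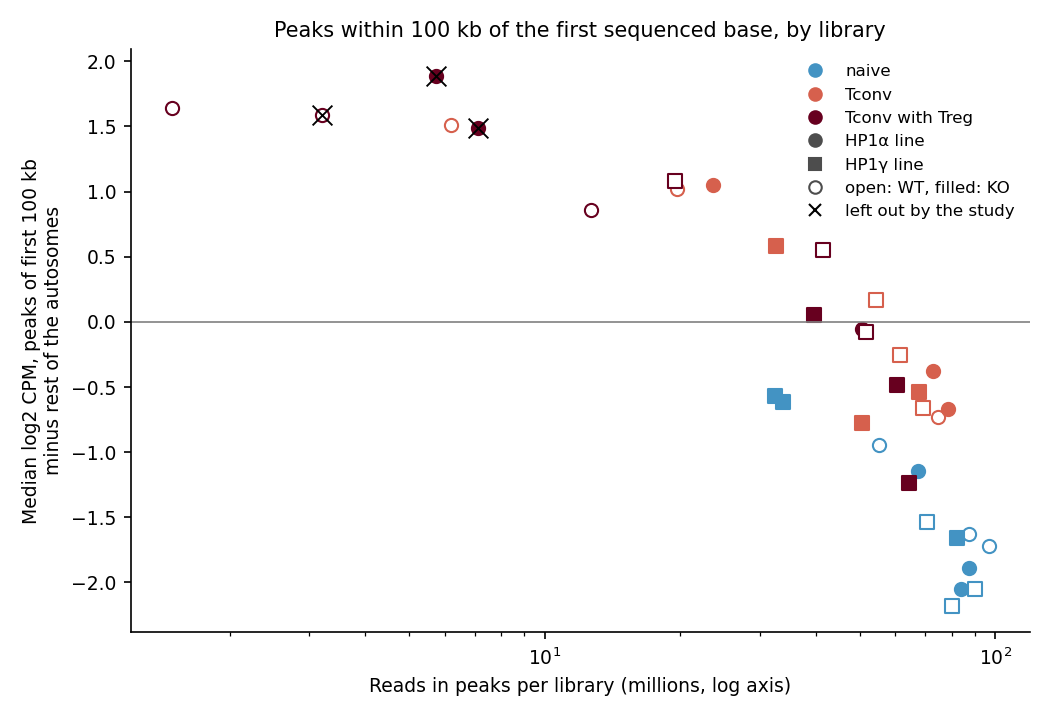
Median log2 CPM of the 86 peaks within 100 kb of the first sequenced base minus that of the other autosomal peaks, against the reads in peaks (log axis), 1 point per library, coloured by condition, with crosses for the 3 libraries left out by the study. Values run from -2.18 in an HP1γ WT naive library to 1.89 in an HP1α KO library of Tconv with Treg, and shallow libraries lie high.

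KO against WT in this region depended on depth and on single libraries. In HP1γ naive cells the median was 1.12, with 79 of 86 peaks above 0; edgeR called 0, with 26 at an unadjusted p under 0.05, and DESeq2 called 11. With depth as a covariate that median was 0.28, and a fit of the compared groups alone called 39 peaks higher. The WT naive libraries had the region at -2.18 to -1.53 relative to other peaks and the KO naive libraries at -1.66 to -0.57. In Tconv the median was 0.27, and 1 peak fell, at Gm11400 (chr11:3103701-3104280). The median there was -0.11 with depth as a covariate and -0.21 without KO replicate 2. In Tconv with Treg 35 of 86 (40.7%) fell, against 5.38% of all peaks, with a median of -1.26 and 83 of 86 below 0. WT libraries lay at -0.08 to 1.08 and KO libraries at -1.24 to 0.05. The groups overlapped, but within each same-numbered pair, which deviate together in this comparison, KO lay below WT, at -1.24 against -0.08, -0.49 against 0.55 and 0.05 against 1.08, and with a block for the replicate number 46 peaks fell. The KO library was also the deeper one of each pair (64.2, 60.5 and 39.6 M reads against 51.7, 41.4 and 19.4 M). The count of 35 became 5 with depth as a covariate (median -0.56), 5 in a fit of the compared groups alone (median -1.27), 4, 18 and 52 without KO replicates 1, 2 and 3, and 65, 3 and 8 without WT replicates 1, 2 and 3. In HP1α KO the medians were -0.13 in naive cells, -0.52 in Tconv, and -1.41 (kept) and -0.47 (all) in Tconv with Treg. By edgeR 0 of the 86 were called there, with 1, 1, 13 and 1 at an unadjusted p under 0.05, and with depth as a covariate the medians in Tconv, Tconv with Treg (kept) and Tconv with Treg (all) turned to 0.13, 0.61 and 0.69, with 1 peak called higher with all libraries. Leaving out 1 library gave -1.55 (without WT replicate 1) to 0.07 (without WT replicate 2) in Tconv and -0.97 to 0.52 (without KO replicate 1) with all libraries of Tconv with Treg. With the kept libraries it gave -1.90 to -1.14.

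Of the 25 repetitive members, 20 were among these 86 peaks, 28.2% of the 71 scored. The largest family, singled out after values were seen, comprised 10 peaks on chromosome 9 (3000001 to 3038459) that repeated every 234 bases with 60.5% to 93.9% identity. Its unit, printed above from the peak chr9:3013671-3014675, has 35.5% GC and matches the next unit at 217 of 234 bases (92.7%). All 10 peaks opened in HP1α-line WT cells, with a median of 2.58, and 7 in HP1γ-line WT cells, with a median of 1.25. The 66 peaks of the region left when all 20 repetitive ones are set aside, of which 15 were too narrow to score for repeats, had medians of 2.26 and 1.70. Reads of such repeats can map to several places, and the authors removed reads of low mapping quality.

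Loss of HP1γ changed accessibility in the window at the rate seen elsewhere, and more in Tconv with Treg than in the other conditions by count. In naive cells 5 of 3312 members rose, against 0.133% of all peaks, and 0 fell by edgeR or DESeq2, against 0.00699%, while 334 had an unadjusted p under 0.05. DESeq2 called 105 higher. In Tconv 63 (1.90%) rose, against 1.69%, and 45 (1.36%) fell, against 1.66%. In Tconv with Treg 226 (6.82%) rose, against 6.48%, and 169 (5.10%) fell, against 5.38%. The peaks of the last 10 Mb had 363 (4.62%) higher and 515 (6.55%) lower. The medians were 0.03, 0.05 and 0.01, against 0.03, 0.02 and -0.02 in the rest. With Treg the count was 159 when KO replicate 1 was omitted and 165 when WT replicate 2 was. In Tconv it was 63, 48, 55, 44 and 168 when KO replicate 2, KO replicate 3, WT replicate 1, WT replicate 2 and WT replicate 3 were omitted in turn, and in naive cells 3 when KO replicate 2 or 3 or WT replicate 2 or 3 was. A fit of the compared groups alone called 163 members with Treg, 14 in Tconv and 84 in naive cells. The calls with Treg split 280 to 136 and 283 to 122 with offsets on GC content and on abundance, and 196 to 202 by library size alone. In Tconv they split 49 to 53 and 50 to 68 with those offsets, so the balance of rises and falls there depends on the scaling.

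Single chromosomes stood out here too. On chromosome 4, 18 of 255 members (7.06%) rose in HP1γ KO Tconv and 4 (1.57%) fell, against 1.23% and 1.03% in the rest of the chromosome, and with Treg 36 (14.1%) rose and 13 fell, against 4.54% and 4.57% in the rest of chromosome 4. On chromosome 2, 34 of 268 (12.7%) rose with Treg and 11 (4.10%) fell, against 6.52% and 5.06% in its rest. On chromosome 3 none of the 101 rose with Treg by edgeR and 15 (14.9%) fell, against 6.47% and 5.57% in its rest, with a median that differed by -0.51 from the rest of the chromosome. Of these 101 members 12 lay in the first 100 kb, a region that moved with depth, and 7 of the 12 fell (median -1.36). On chromosome 15, 8 of 185 (4.32%) rose and 23 (12.4%) fell with Treg, against 6.06% and 4.20% in its rest, and 0 rose and 10 (5.41%) fell in Tconv by edgeR, against 1.46% and 1.08%. There were 9 chromosomes above and 10 below their rest.

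With Treg, much of the chromosome 4 rise lay around Tox, which encodes an HMG-box transcription factor of T cell development and exhaustion. Of the 88 members nearest to Tox among protein-coding genes, 21 rose and 1 fell in HP1γ KO Tconv with Treg. In Tconv 6 of them rose and 0 fell (DESeq2 called 123 members of the whole window in Tconv). As many rose in Tconv around Car8, also on chromosome 4, where 6 of 17 peaks at and downstream of the TSS rose and 1 fell. With Treg 7 of these 17 rose and 0 fell. Of the 3 peaks upstream of Car8, 0 rose and 1 fell in Tconv, and 0 rose and 0 fell with Treg. Of all peaks, 6.48% rose and 5.38% fell with Treg, and 1.69% and 1.66% did so in Tconv. The median log2 CPM over the 88 Tox peaks averaged 0.25 ± 0.20 (SD, n = 3) in WT and 0.65 ± 0.30 in KO Tconv with Treg. The groups overlap at the edge (highest WT 0.44, lowest KO 0.41). Within each same-numbered pair, which deviate together in this comparison, KO lay above WT. The pairs had 0.99 against 0.25, 0.41 against 0.04 and 0.54 against 0.44. In Tconv this median averaged -0.88 ± 0.11 in WT and -0.23 ± 0.44 in KO, with WT at -1.01 to -0.79 and KO at -0.66 to 0.22. In naive cells it was 0.20 ± 0.15 and 0.58 ± 0.18, with WT at 0.05 to 0.34 and KO at 0.39 to 0.75. The groups of the last pair of comparisons did not overlap. With Treg most of the gain at Tox lay at and downstream of the TSS, across the gene body (plot of fold changes along Tox). Of the 61 peaks from 1.53 to 243 kb downstream, 19 rose and 0 fell with Treg (median 0.83, 57 above 0), and 60 of 61 were above 0 in Tconv (median 0.81). The 27 upstream peaks, at -612 to -99.9 kb, had 2 up and 1 down with Treg and a median of -0.07. In Tconv their median was 0.50, with 21 of 27 above 0. In naive cells the medians were 0.28 upstream (23 of 27 above 0) and 0.32 at and downstream of the TSS (54 of 61). With activation the upstream peaks closed, 20 and 22 of 27 in the 2 lines.

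**Figure D4:**
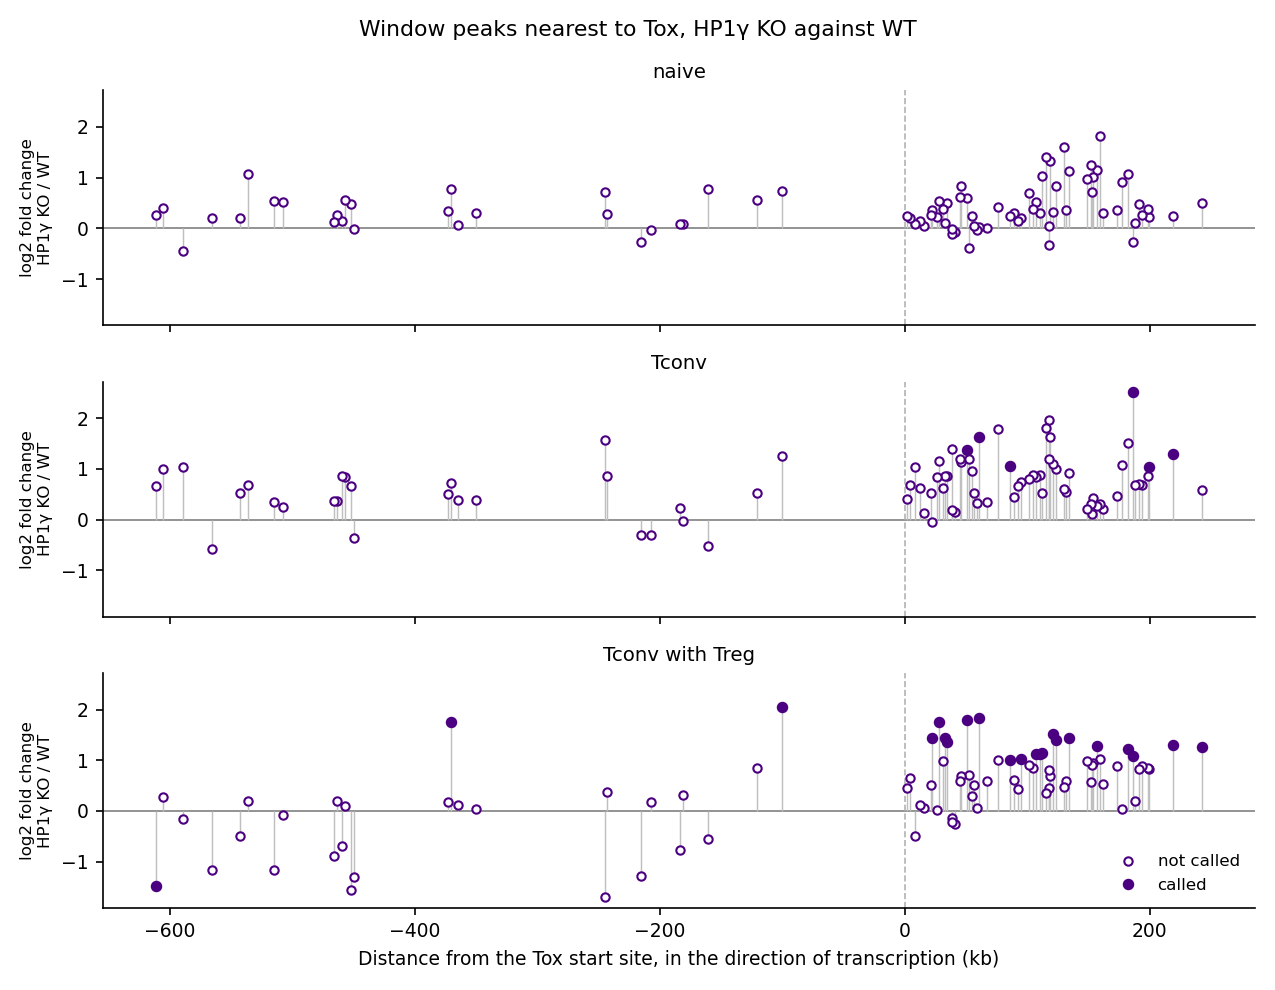
Log2 fold change of HP1γ KO against WT at the 88 peaks nearest to Tox, by distance in kb from the Tox TSS (negative is upstream), in naive cells, Tconv and Tconv with Treg. Filled points were called. In Tconv with Treg the 61 peaks at and downstream of the TSS have a median of 0.83 and the 27 upstream peaks a median of -0.07.

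At the Tox TSS peak (chr4:6988041-6992190) HP1γ-line WT Tconv with Treg had 6.12, 5.79 and 5.44 log2 CPM and KO had 6.35, 6.26 and 6.27. The groups did not overlap, the log2 fold change was 0.46 and the edgeR adjusted p 0.0074, below the fold needed for a call. In an intron, at chr4:6940371-6941880, the log2 fold change was 1.80 with an adjusted p of 0.000196. In the HP1α line with the kept libraries the same intronic peak fell by 1.31 (adjusted p 0.0303), and with all libraries it had -1.02 (adjusted p 0.163).

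The peak that rose most clearly was in an intron of Gm60894, an lncRNA on chromosome 16 (plot of named peaks). In WT Tconv it had -0.57, -0.47 and 0.20 log2 CPM and in KO Tconv 3.29, 3.67 and 3.61, a log2 fold change of 3.86 (edgeR adjusted p 5.24e-07). With Treg it had -0.95, 0.90 and 0.88 in WT and 3.45, 3.20 and 3.70 in KO, a log2 fold change of 3.13 (adjusted p 1.28e-05). In naive cells WT had 12, 2 and 14 reads and KO 41, 25 and 14, and the peak was not called. A neighbouring peak in an intron of Gm49448 (chr16:8980511-8980860) also rose in Tconv, by 3.39, with 4, 17 and 17 reads in the WT libraries.

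The intergenic peak nearest to Gm33007 on chromosome 4 had 0.46, 1.69 and 1.30 log2 CPM in WT Tconv and 2.79, 3.07 and 3.19 in KO. It rose by 1.85 (adjusted p 0.00017) and by 1.60 with Treg (adjusted p 0.00072). The others named for a rise in Tconv were at Gm6291, a pseudogene, by 1.89, which also rose by 1.44 in naive cells and 1.25 with Treg, and at Gm13391, by 1.41. With Treg, a peak in an exon of Celf2, an RNA-binding splicing regulator, had 2.69, 1.87 and 2.32 log2 CPM in WT and 4.11, 3.94 and 3.80 in KO. It rose by 1.62 (adjusted p 2.86e-05). In an exon of Mmp10, a secreted matrix metalloproteinase, WT had 3.80, 2.78 and 3.39 and KO 5.86, 5.43 and 5.33, a rise of 2.17 (adjusted p 5.07e-05). Gm15536 rose by 2.50 with Treg and 1.94 in Tconv, and Gm8802 by 1.73 with Treg. In naive cells the members that rose were near Spef2, a protein of sperm flagella, by 1.35 (0.71, 0.04 and 0.67 log2 CPM in WT and 1.58, 1.99 and 1.86 in KO), Gm48481 by 1.73, Syne1 by 1.31, the TSS of Elapor2 by 1.03, and Gm6291.

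**Figure D5:**
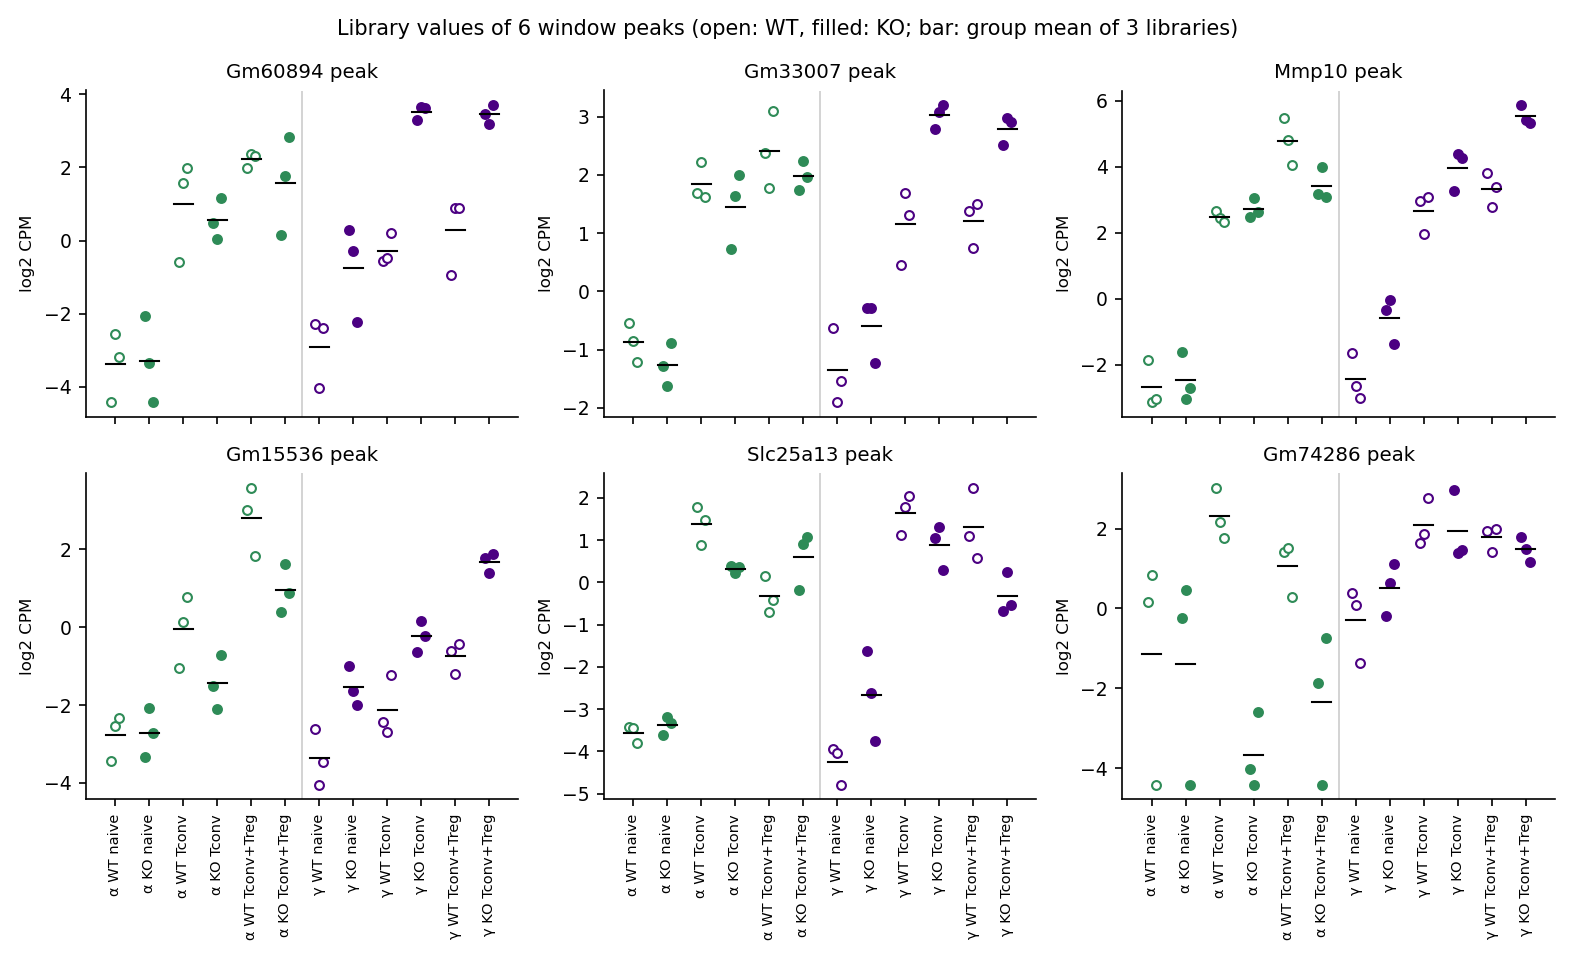
Log2 CPM of 6 named peaks in each of the 36 libraries, by group, with open points for WT, filled points for KO and a bar at each group mean. The peak at Gm60894 has WT Tconv at -0.57 to 0.20 and KO Tconv at 3.29 to 3.67 in the HP1γ line, and the peak at Mmp10 lies higher in HP1γ KO and lower in HP1α KO than in WT Tconv with Treg.

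Named peaks that fell without HP1γ lay near genes of several kinds. In an intron of Dnmt3a, the de novo DNA methyltransferase, the peak chr12:3918381-3919020 had 2.60, 2.47 and 1.89 log2 CPM in WT Tconv and 1.12, 1.30 and 0.65 in KO. It fell by 1.40 (adjusted p 0.0011), and by 1.16 with Treg (1.70, 1.94 and 1.60 in WT and 0.32, 0.80 and 0.78 in KO). The Nup155 intron peak, in a nuclear pore gene, fell by 1.65 in Tconv and 2.67 with Treg, and Gm75744, ENSMUSG00000128342 and Gm11400 fell by 2.18, 1.52 and 1.45 in Tconv. With Treg, an intergenic peak near Chd7, a chromatin remodeller, had 3.11, 3.12 and 3.35 in WT and 1.62, 2.16 and 1.94 in KO and fell by 1.26 (adjusted p 0.00032). Of 55 peaks around Chd7, 10 fell and 1 rose, a peak at its TSS (chr4:8853531-8854560), by 1.79 (adjusted p 0.000129). Over all peaks 5.38% fell and 6.48% rose with Treg. Gm54383, Dtnb and Gm59071 fell by 1.77, 1.36 and 1.71, and the TSS peak of Map3k8, the kinase TPL2, by 1.20.

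Around Il7r, the receptor for the T cell survival cytokine IL-7, 8 of 20 peaks fell with Treg and 0 rose by edgeR. DESeq2 called 400 members of the whole window in that comparison. The counts at Il7r, and those at Ptger4 and Gata3 below, stand against 5.38% of all peaks falling and 6.48% rising with Treg. In Tconv 1.66% of all peaks fell and 1.69% rose. The median log2 CPM over these 20 peaks averaged 2.68 ± 0.29 (SD, n = 3) in WT and 1.68 ± 0.34 in KO Tconv with Treg, with WT at 2.51 to 3.02 and KO at 1.34 to 2.02, which do not overlap. In naive cells it was 2.88 ± 0.09 and 2.80 ± 0.04. Each of the 17 upstream peaks lay below 0 with Treg, with a median of -1.01. The TSS peak (chr15:9526221-9530850) had 5.77, 6.03 and 5.60 log2 CPM in WT and 4.62, 5.24 and 4.46 in KO. Its log2 fold change was -0.996 with an adjusted p of 0.0009, just short of the fold needed for a call. Ptger4 peaks also fell, 7 of 30 with Treg and 5 in Tconv, with none higher by edgeR. Their median log2 CPM with Treg averaged 2.14 ± 0.13 in WT and 1.05 ± 0.35 in KO, at 2.01 to 2.27 and 0.84 to 1.45. Of the 72 assigned to Gata3, 9 fell and 0 rose in Tconv, but with Treg 7 rose and 6 fell.

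Some members differed in the same direction in every library. In 62 members (1.87%) each HP1γ KO library lay above each WT library in all 3 conditions, against 1.56% of all peaks, and in 21 (0.634%) below, against 0.544%. Of the 62, 16 lay on chromosome 4 and 10 were nearest to Tox, and 39 were called in at least 1 condition. Their median log2 fold changes were 0.77 (naive), 0.93 (Tconv) and 1.26 (Tconv with Treg), values that the selection itself fixes in sign. In the HP1α line, whose libraries the selection did not use, 24, 26 and 9 of the 62 had KO above WT in these conditions (all libraries). None of the 86 peaks of the first 100 kb was among them.

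Loss of HP1α left naive cells with no called member. In naive cells edgeR called 0 of 3312 higher, against 0.0042% of all peaks, and 0 lower, against 0.0014%, with 43 at an unadjusted p under 0.05 and 0 by DESeq2. In Tconv 1 member rose, against 0.00839%, and 3 fell, against 0.0126%, with 156 at an unadjusted p under 0.05, while DESeq2 called 1. In Tconv with Treg the kept libraries gave 19 higher, against 0.218%, and 32 lower, against 1.42%. These calls, and each kept-library p below, set 1 KO library against 2 WT libraries, so the spread comes mostly from the other groups of the fit and the lone KO library is assumed to vary like them. All libraries gave 0 higher, against 0.0126%, and 13 lower, against 0.729%. The medians were -0.02, -0.02, -0.15 and -0.08, against 0.00, -0.03, -0.11 and -0.07 in the rest. Depth differed between genotypes here, and with depth as a covariate the kept-library count was 1, with the compared groups alone 0, and omitting 1 of the WT libraries left 0 (replicate 1) or 16 (replicate 2). With all libraries the count was 0 without KO replicate 1 or WT replicate 1, 27 when KO replicate 2 was omitted and 24 when WT replicate 3 was. With offsets on GC content the kept libraries gave 1 higher and 35 lower, and by library size alone 32 and 34, while all libraries gave 11 and 12 by library size and 11 and 28 with offsets on abundance.

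The 4 called members in HP1α Tconv were on chromosomes 6 and 11. An intronic peak at the lncRNA Gm57349 (chr11:5452611-5453070) rose by 1.87 (edgeR adjusted p 0.006), with 73, 21 and 17 reads in WT and 275, 295 and 122 in KO. The Slc25a13 intron peak had 1.77, 0.89 and 1.47 log2 CPM in WT and 0.40, 0.22 and 0.36 in KO and fell by 1.33 (adjusted p 0.0076). It also fell in HP1γ KO Tconv with Treg, by 1.84. A peak in an intron of Camk2b, a subunit of a calcium-dependent kinase (chr11:5948611-5948940), fell by 1.62 (adjusted p 0.030). Close to it, the TSS peak of the lncRNA Gm74286 (chr11:5955741-5957550) had 554, 94 and 22 reads in WT Tconv and 1, 0 and 3 in KO (adjusted p 0.0061). In naive cells it had 47, 156 and 0 reads in WT and 46, 105 and 0 in KO, so single libraries of both genotypes were at 0. Without KO replicate 1, 13 members were called in HP1α Tconv, without KO replicate 2 it was 1, and without WT replicate 1 it was 0.

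With Treg, 18 of the 19 rises in HP1α KO (kept libraries) lay on chromosome 19, and all 18 were TSS peaks. The 451 members of chromosome 19 had a median of 0.73, against -0.11 in the rest of the autosomes, and 0.58 against -0.07 with all libraries. The 5 with the smallest adjusted p were at Atg2a, a lipid transfer protein of autophagy (1.21), Gm59604 (1.31), Rasgrp2, an activator of the GTPase Rap1 (1.16), Gm56666 (1.45) and Batf2, an AP-1 family factor (1.20). With all libraries these 5 had 0.95, 1.10, 0.99, 1.18 and 0.93, with adjusted p from 0.111 to 0.235, and none was called by edgeR. At Atg2a the kept WT libraries had 5.52 and 4.82 log2 CPM and the kept KO library 6.66. The libraries left out had 5.24 in WT and 5.73 and 6.16 in KO. In single libraries, the members of chromosome 19 lay 0.52 to 0.89 above the rest of the chromosome in WT and 1.10 to 1.29 in KO Tconv with Treg, and 0.93 to 1.54 in WT Tconv and naive cells of both lines. The WT libraries with Treg held 1.49 to 12.7 M reads and the KO libraries with Treg 5.73 to 50.7 M, and the part of depth in this difference was not tested beyond the fit with depth as a covariate. With depth as a covariate the medians were 0.54 against 0.05 and edgeR called 0 (kept), and 0.48 against 0.07 with 3 called (all). By DESeq2 110 members rose with the kept libraries. With offsets on GC content edgeR called 0 of the 451 with the kept libraries, while the difference of the medians was 0.85. Against peaks of the same GC decile that difference was 0.85 (kept) and 0.64 (all), and leaving out 1 library gave differences from the rest of 0.39 to 0.84. Of the 18 rises, 0 and 3 were called when WT replicates 1 and 2 were omitted.

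Members that fell in HP1α KO with Treg often rose in HP1γ KO with Treg, comparisons that share no library. Of the 32 that fell (kept libraries), 27 (84.4%) were among the 226 that rose in HP1γ KO, of which they were 11.9%. None was called in the same direction by edgeR. In the rest of the autosomes 762 of 960 (79.4%) did so, 17.7% of the 4294 HP1γ rises, so the share was not particular to the window. With all libraries it was 11 of 13 (84.6%). At Mmp10 the HP1α WT libraries with Treg had 5.48, 4.82 and 4.04 log2 CPM and KO 3.17, 3.99 and 3.09, and the peak fell by 2.25 with the kept libraries (adjusted p 0.000678) and 1.77 with all (0.00386), against the rise of 2.17 in HP1γ KO. Gm15536 fell by 2.79 and 2.20, and 5430414B19Rik by 2.53 and 2.12. In HP1γ KO the latter rose by 2.41, from 2.59, 1.45 and 1.87 log2 CPM to 5.04, 3.81 and 4.42. The 27 also held peaks at Penk, which encodes the enkephalin precursor, Ezr (ezrin, a membrane to actin linker), Zeb1, a zinc finger repressor, Tox, Mmp1a and Pfkp, a glycolytic enzyme. With all libraries Pfkp fell by 1.98 (adjusted p 0.00594), while Penk (-1.90), Ezr (-0.96), Zeb1 (-1.29), Tox (-1.02) and Mmp1a (-1.72) were not called by edgeR, at adjusted p of 0.0512, 0.12, 0.142, 0.163 and 0.121. Of the other members named for a fall, Gm45118, Gm72025 and Gm48262 had -3.32, -3.62 and -4.80 with the kept libraries and -2.49, -2.38 and -2.44 with all, where Gm45118 was called (adjusted p 0.00758) and Gm72025 and Gm48262 were not (0.0673 and 0.12).

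Activation in KO cells was close to that in WT cells in size. In HP1α KO cells 786 members opened, against 23.5% of all peaks, and 591 closed, against 19%. In HP1γ KO cells 724 opened, against 22.4%, and 668 closed, against 20.6%. Chromosome 14 again lay lowest, at -0.66 and -1.01 relative to its rest. The difference of activation between genotypes was tested for each peak. In the HP1α line 0 members passed, against 0% of all peaks, with edgeR and with DESeq2, and 68 had an unadjusted p under 0.05. In the HP1γ line 1 passed, against 0.014% of all peaks, and DESeq2 called 53. It was a peak in an intron at Gm15560 (chr10:7694271-7696380), with 2.74 ± 0.15 log2 CPM (SD, n = 3) in WT naive cells, 2.34 ± 0.11 in WT Tconv, 2.17 ± 0.05 in KO naive cells and 3.24 ± 0.11 in KO Tconv. The log2 difference of the changes was 1.50 with an edgeR adjusted p of 0.0407, and from 0.0177 to 0.196 without single libraries, of which only the fit without WT Tconv replicate 3 passed.

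Peaks at genes of the lists are to be read against all peaks, of which 6.48% rose and 5.38% fell in HP1γ KO with Treg, while 24.9% and 24.5% opened and 17.5% and 22% closed with activation in WT cells of the 2 lines. Of 143 peaks at 13 transcription and chromatin regulators, 17 rose and 9 fell in HP1γ KO Tconv with Treg (median -0.01, against 0.01 for all members), and 14 of the 17 were at Tox. With activation 27 opened and 35 closed in the HP1α line and 26 and 45 in the HP1γ line (medians -0.30 and -0.22). Of 3 heterochromatin histone methyltransferase genes, Kmt5b and Kmt5c, which methylate lysine 20 of histone H4, had 3 peaks, none of which edgeR called in any KO comparison. The TSS peak of Kmt5b had 6.79, 6.76 and 6.67 log2 CPM in HP1γ-line WT Tconv with Treg and 6.71, 6.83 and 6.75 in KO, which overlap. Of 19 peaks at 6 of 8 cytokine and receptor genes, 12 and 10 opened with activation and 0 closed by edgeR, with medians of 1.43 and 1.18, and 1 rose and 1 fell in HP1γ KO with Treg. The TSS peaks of Ccr6, the chemokine receptor of Th17 cells, Osmr, the oncostatin M receptor, and Lif rose by 2.88, 1.52 and 1.01 in the HP1α line and by 2.40, 1.27 and 1.50 in the HP1γ line.

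Of 78 peaks at 13 of 14 signalling and survival genes, 25 opened in each line and 11 and 12 closed (median 0.26 in both), and 3 rose and 2 fell in HP1γ KO with Treg. The most covered Cdk6 peak rose by 1.97 and 2.56, and the TSS peak of Lyn, a Src family kinase, by 1.78 and 2.14. The TSS peak of Sgk3, a kinase downstream of PI3 kinase, fell by 1.90 and 1.89 and that of Insr, the insulin receptor, by 1.24 and 1.27. Of 39 peaks at 23 zinc finger genes, 9 and 8 closed and 3 opened in each line (medians -0.51 and -0.36), and 3 fell and 0 rose in HP1γ KO with Treg by edgeR. The TSS peak of Zfp582 fell by 2.54 and 3.15, and that of Zfp704 fell by 2.37 and 3.02 and also fell by 1.05 in HP1γ KO with Treg (adjusted p 0.022). With the kept HP1α libraries Rela, a subunit of NF-kB on chromosome 19, rose by 1.21 at its TSS (adjusted p 0.039), and with all libraries it had 0.91 (adjusted p 0.313).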

How the data were processed

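ATAC-seq was performed on naive CD4 T cells, Tconv and Tconv transferred with Treg of the HP1α and HP1γ lines, 36 libraries in 12 groups of 3. The authors trimmed reads with Trim Galore 0.6.7, aligned them to GRCm39 with BWA-MEM2, removed duplicates, reads of low mapping quality and blacklisted regions, called peaks in each sample with HMMRATAC, merged them, and deposited counts of reads per merged peak from featureCounts 2.0.3, a setting in which a read may count for several peaks. The deposited counts were used as they are, and the peak positions, which are given 1-based here, were taken from the same table. All sample columns could be matched to a sample (0 were unused).

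Counts were tested over all peaks with the quasi-likelihood test of edgeR 4.0.16 (R 4.3.3, limma 3.58.1) with Benjamini-Hochberg adjustment, TMM scaling and the filter filterByExpr, in 1 fit per line over all its groups (18 libraries, or 15 for HP1α with the kept libraries). Of the 71512 intervals the 3 of no width were set aside first, and the filter kept 71508 or 71509 of the remaining 71509. Calls needed both an adjusted p under 0.05 and a log2 fold change beyond 1 in either direction. A prior count of 2 was added for log2 CPM. Libraries held 1.49 to 96.8 M reads in peaks, so shallow libraries give less precise values. The test was checked on simulated counts. DESeq2 1.42.0 served as an alternative. Peaks were assigned to the nearest TSS of GENCODE vM39, with TSS peaks within 1 kb.

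The members, gene lists and tests were chosen with earlier results of these data known. Named peaks were, per comparison and direction, up to 5 called members with the smallest adjusted p whose library groups did not overlap, plus the TSS peak or the most covered peak of each listed gene, and sequences are the central 200 bases of peaks the text turns on. Same-numbered libraries of WT and KO deviated together, with every correlation over 0.1, in HP1α naive cells (0.243 to 0.493) and HP1γ Tconv with Treg (0.147 to 0.324), and not in the other comparisons.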

Additional observations from a re-analysis of the deposited data

Results flagged for a closer look

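The change with activation differed between HP1γ KO and WT cells at 1 member, the intronic peak at Gm15560 (chr10:7694271-7696380), by an interaction test over all peaks. The log2 difference was 1.5 with an edgeR adjusted p of 0.0407. WT cells had 2.74 ± 0.15 log2 CPM (SD, n = 3) when naive and 2.34 ± 0.11 as Tconv, and KO cells had 2.17 ± 0.05 and 3.24 ± 0.11, so that the peak was lower with activation in WT and higher in KO. With offsets on GC content the adjusted p was 0.0893, and with a block for the replicate number it was 0.0515.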

How the results depend on the processing

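Under the alternatives 306 values of the summary results moved by less than the limits set, and the others are given next. No call reversed, but the difference, which carries no test, changed sign in several. Of 1718 values of 104 named peak results, 1580 kept their call and direction and 138 lost the call, none reversing. They are counts of called members or differences in median log2 fold change, members minus rest. By DESeq2 the counts were 1 (HP1α Tconv), 150 (HP1α Tconv with Treg, kept), 39 (all), 105 (HP1γ naive) and 53 (HP1γ interaction). On the compared groups alone they were 1, 0, 0, 84 (HP1γ naive), 14 (HP1γ Tconv) and 163 (HP1γ with Treg). The quasi-likelihood of earlier edgeR versions, added after seeing the data, gave 0, 7, 0, 13 and 57 (HP1γ Tconv). Offsets on abundance gave 2 (HP1α Tconv), 39 (HP1α all) and 9 (HP1γ naive), library size alone 23 and GC offsets 21 (HP1α all), and depth as a covariate 1 (HP1α kept) and 3 (HP1γ naive). The interaction in the HP1γ line had 0 calls with GC offsets or depth.

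With a block for the replicate number the counts were 102 (HP1α kept) and 29 (HP1α all), 25 with GC offsets as well, and 0 for the HP1γ interaction with the block alone and with GC offsets. The block moved no other count by over 1.5 times, among them 3, 5, 118 and 435 for HP1α Tconv and HP1γ naive, Tconv and Tconv with Treg.

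With the window ended at 5 Mb the difference was -0.060 (HP1α kept), -0.043 (HP1α all), -0.054 (HP1γ naive), 0.017 and 0.043 (activation in HP1α and HP1γ WT cells), and 0.031 and 0.10 (in KO cells), and at 15 Mb -0.077 (HP1γ WT activation). At TSS peaks it was -0.000759 (HP1α kept), 0.018 (all), -0.024 (HP1γ naive), 0.019 (HP1γ with Treg), -0.0078 and 0.040 (activation in HP1γ WT and KO), and at other peaks -0.081 (kept), -0.11 and -0.065. Beyond 100 kb, added after seeing the data, it was -0.011 (kept), 0.0058 (all) and -0.073 (HP1γ WT activation). As the median over chromosomes it was -0.14 (kept), -0.11 (all), 0.10 (HP1γ Tconv), -0.0018 (HP1γ with Treg), -0.10 (HP1γ WT activation) and -0.089 (HP1α KO activation). Among the values given here, the sign was opposite to the main value's in each 5 Mb value but those of HP1α kept and all, at TSS peaks for HP1α all, HP1γ naive and HP1γ KO activation, beyond 100 kb for HP1α all, and over chromosomes for HP1γ with Treg. The cause of these moves was not tested.

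Leaving out 1 library gave 0 to 27 calls (HP1α all), 0 to 16 (kept), 0 to 13 (HP1α Tconv), 0 (HP1α naive and interaction), 3 to 5 (HP1γ naive), 44 to 168 (Tconv), 159 to 517 (with Treg), 0 to 5 (HP1γ interaction), and for activation 1232 to 1386 and 1447 to 1587 in WT and 1296 to 1373 and 1183 to 1409 in KO cells. The differences changed sign in HP1α all (-0.028 to 0.0095), HP1α naive (-0.033 to 0.00051) and HP1γ naive (-0.0040 to 0.0069). They ranged from -0.050 to -0.030 (HP1α kept), 0.00 to 0.02 (HP1α Tconv), 0.01 to 0.04 (HP1γ Tconv) and 0.0097 to 0.071 (HP1γ with Treg). For activation they were -0.08 to -0.04 and -0.072 to -0.038 in WT and -0.05 to -0.02 and -0.01 to -0.00 in KO cells. Where an omission leaves 1 library in a group, that library is assumed to vary like the others. The share of soft-masked repeats was not run. Depth limits the HP1α comparison with Treg, where WT libraries held 1.49 to 12.7 M reads.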
